A study of Mus musculus with 40 samples.

Results

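The genes described here encode the proteasome. They were the 40 of 20295 genes in the count table of brown adipose tissue (BAT) whose symbol begins with Psma, Psmb, Psmc or Psmd followed by a digit. By role, 7 encode the outer alpha rings of the 20S core particle (*Psma1* to *Psma7*), 7 its constitutive inner beta rings (*Psmb1* to *Psmb7*) and 3 the beta subunits of the immunoproteasome (*Psmb8*, *Psmb9* and *Psmb10*). A further 6 encode the ATPases (*Psmc1* to *Psmc6*) and 3 the non-ATPase subunits (*Psmd1*, *Psmd2* and *Psmd4*) at the base of the 19S regulatory particle, and 8 its lid. The symbol rule also took genes that are no part of the mature particle: 3 chaperones of its assembly (*Psmd5*, *Psmd9* and *Psmd10*) and *Psmc3ip*, a partner of the meiotic recombinases. It took a germ cell alpha subunit (*Psma8*) and a beta subunit of thymic epithelium (*Psmb11*) as well. These last genes gave at most 6 and 1 reads in any library, a level at which neither could be tested, so 38 genes entered the test. The 31 constitutive subunits of the 20S and 19S particles are called core subunits below.

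The proteasome is the chamber in which cells break down proteins tagged with ubiquitin. The 19S particle binds the tagged protein, its lid removes the ubiquitin, and its ring of ATPases unfolds the chain and feeds it into the 20S core, where *Psmb5*, *Psmb6* and *Psmb7* encode the subunits that cut it. Under interferon these subunits are exchanged in newly built particles for those of *Psmb8*, *Psmb9* and *Psmb10*, which changes the peptides left over for display on MHC class I. In brown fat, proteasome activity is held up during thermogenesis by the transcription factor NFE2L1, which induces the subunit genes together.

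BAT of male mice kept at 29 °C was compared between 8 groups of 5 libraries. C-3BO mice carried the *Gpr3* TTG allele, in which *Gpr3*, a receptor that signals through Gs without a ligand, is driven from Rosa26 by the CAG promoter once Cre has removed a stop cassette. Cre came from the Ucp1-Cre transgene and so acted in brown and beige adipocytes. Their control littermates lacked either Cre or the *Gpr3* TTG allele and are labelled wild-type or control. C-3BO and control mice, 13 to 19 weeks old, were fed chow or a high-fat diet (HFD) with 60% of calories from fat for 7 days. The other groups were 15-week-old wild-type mice that were control littermates of the inducible I-3BO line, injected daily for 9 days with the β3-adrenergic agonist CL-316,243 (CL, 1 mg per kg) or with saline (10 µL per g), on chow or on HFD begun 2 days after the first injection. The tissue was taken the day after the last injection, so the CL values are not those of the hours after a dose.

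Library totals ran from 849126 to 15260516 counts, with a median of 9050167. The lowest was replicate 4 of HFD saline. *Gpr3* had a mean level, in counts scaled to library size with TMM factors (CPM), of 375 CPM in chow C-3BO and 792 CPM in HFD C-3BO, against 0.388 and 0.335 CPM in the controls of the same diets. Replicate 3 of chow CL held it at 9.15 CPM. Replicate 5 of chow CL had *Ucp1* at the level of the saline libraries, with values given below. A set of 12 libraries, namely all of HFD saline and HFD CL and replicates 4 and 5 of HFD C-3BO, carried transcripts of liver (*Alb*) and epididymis (*Lcn8*), which the other libraries held at or near 0. Skeletal muscle transcripts varied with diet: the summed level of *Acta1*, *Ckm*, *Mylpf*, *Tnnt3* and *Myh4* was 573 to 7233 CPM in chow control and 4.03 to 157 CPM in HFD control. In bulk tissue, fewer cells of a type and less RNA per cell cannot be told apart.

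Per length of transcript, most core subunits lay in a narrow band. In chow control BAT their median level was 59.1 CPM per kb, with the middle of the distribution (quartiles) at 45.2 and 86.0 CPM per kb. *Psmd8*, a lid subunit, was highest at 173 ± 32.4 CPM per kb (SD, n = 5), followed by the catalytic subunit *Psmb7* at 154 ± 23.3, *Psma6* of the alpha ring at 137 ± 23.1 and *Psmb4* of the beta ring at 135 ± 16.8. The levels of these 4 genes were within 1 SD of their neighbours in that order. The immunoproteasome genes were lower, at 30.5 ± 11.3 for *Psmb8*, 29.1 ± 5.74 for *Psmb10* and 26.4 ± 14.0 CPM per kb for *Psmb9*, and did not differ among themselves beyond their spread. At the bottom were *Psma3* at 6.03 ± 0.535 and *Psma5* at 7.79 ± 1.13 CPM per kb, although every 20S particle holds the products of both. Both are among 7 members with near-identical copies elsewhere in the genome: these (*Psma3*, *Psma4*, *Psma5*, *Psmb3*, *Psmb5*, *Psmd2* and *Psmd11*) match another place in mm9 over 300 or more bases at 95% identity or better, more than 50000 bases from the gene. Reads shared with such copies could have been lost or assigned elsewhere, so their counts are uncertain. So are those of *Psma4*, *Psmc3ip* and *Psmd1*, each of which overlaps another gene, since the strand setting of the counting is not given in the sources used here. The chaperones of assembly were at 8.31 to 15.8 CPM per kb and *Psmc3ip* at 1.39 ± 1.11 CPM per kb.

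**Figure D1:**
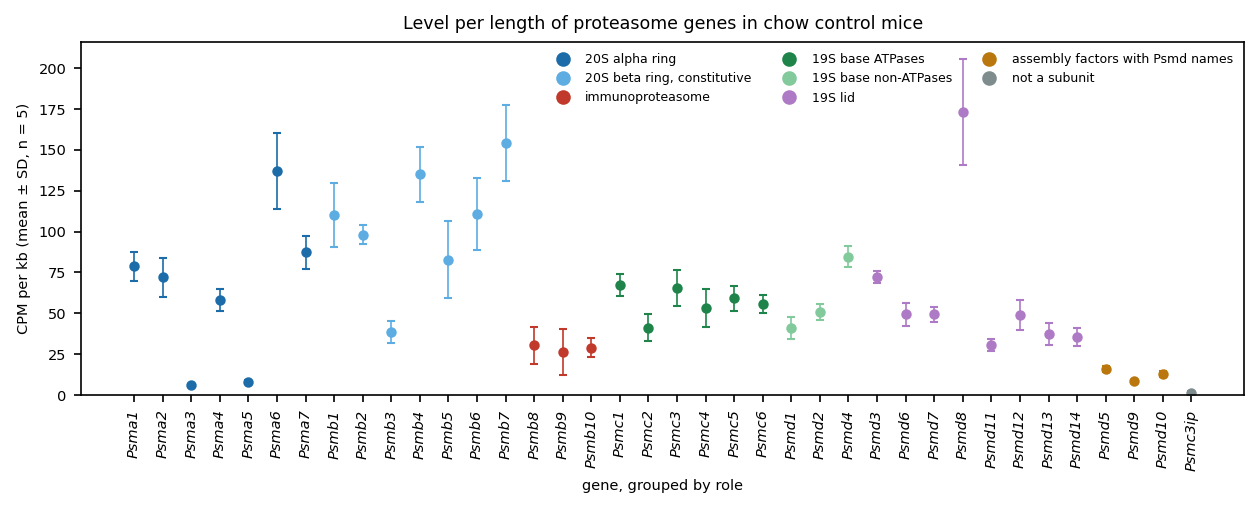
Level of each tested proteasome gene in the 5 chow control libraries, in TMM-scaled CPM per kb of transcript, as mean ± SD, with genes grouped and coloured by role. *Psmd8* stands highest at 173 CPM per kb, the core median is 59.1, and *Psma3* and *Psma5* are the lowest core subunits at 6.03 and 7.79.

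The start regions of 5 genes on which the results turn are printed from mm9, from 250 bases before the deposited transcript start to 50 bases from it, read 5′ to 3′ on the strand of the gene. For the catalytic subunit *Psmb5* (chr14:55236783-55237082, minus strand) and the lid subunit *Psmd12* (chr11:107340592-107340891, plus strand), capitals mark TGACNNNGC on either strand, the core of the antioxidant response element that NFE2L1 and NFE2L2 bind. *Psmc4* (chr7:28835062-28835361, minus strand), an ATPase called higher in every treatment comparison below, holds no such match in this window. For *Psmb8* (chr17:34334890-34335189, plus strand), capitals mark TTCNNNGAA, the gamma-activated site, and for *Psmb9* (chr17:34324226-34324525, minus strand) they mark CCAAT. 
Psmb5: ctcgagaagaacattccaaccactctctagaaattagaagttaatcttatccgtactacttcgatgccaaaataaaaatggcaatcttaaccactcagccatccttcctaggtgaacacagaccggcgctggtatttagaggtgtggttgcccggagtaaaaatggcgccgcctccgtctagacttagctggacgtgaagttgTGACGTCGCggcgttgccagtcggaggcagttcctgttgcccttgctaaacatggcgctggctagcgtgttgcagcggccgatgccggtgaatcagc
Psmd12: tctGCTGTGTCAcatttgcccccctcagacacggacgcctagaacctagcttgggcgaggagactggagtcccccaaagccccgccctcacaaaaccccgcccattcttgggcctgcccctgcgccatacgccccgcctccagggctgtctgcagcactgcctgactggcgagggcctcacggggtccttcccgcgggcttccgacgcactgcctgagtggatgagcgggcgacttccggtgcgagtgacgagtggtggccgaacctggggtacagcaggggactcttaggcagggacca
Psmc4: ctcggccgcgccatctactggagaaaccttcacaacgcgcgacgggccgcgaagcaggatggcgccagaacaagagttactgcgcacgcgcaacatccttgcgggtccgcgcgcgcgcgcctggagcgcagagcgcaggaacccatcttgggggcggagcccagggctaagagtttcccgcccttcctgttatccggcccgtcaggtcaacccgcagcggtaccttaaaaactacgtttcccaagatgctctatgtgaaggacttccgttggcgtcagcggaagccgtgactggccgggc
Psmb8: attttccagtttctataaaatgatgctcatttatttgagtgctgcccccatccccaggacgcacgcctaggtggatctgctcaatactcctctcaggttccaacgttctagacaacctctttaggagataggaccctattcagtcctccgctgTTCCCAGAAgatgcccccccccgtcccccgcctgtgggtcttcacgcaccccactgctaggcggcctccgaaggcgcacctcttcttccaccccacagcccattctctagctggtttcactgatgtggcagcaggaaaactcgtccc
Psmb9: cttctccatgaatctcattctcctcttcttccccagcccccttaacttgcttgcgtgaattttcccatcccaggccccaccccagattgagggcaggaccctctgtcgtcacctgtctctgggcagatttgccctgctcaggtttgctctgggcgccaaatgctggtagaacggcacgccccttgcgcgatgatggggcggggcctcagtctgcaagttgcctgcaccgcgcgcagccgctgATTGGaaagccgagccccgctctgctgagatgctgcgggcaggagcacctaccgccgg
The antioxidant element was in 7 of 40 members, or 17.5%, namely *Psmb2*, *Psmb5*, *Psmb6*, *Psmc6*, *Psmd7*, *Psmd9* and *Psmd12*. It was in 14.2% of the windows of all genes tested and in 12.9% of those of all genes. CCAAT, searched on both strands, was in 15 members (37.5%, against 37.5% of genes tested). The cAMP response element TGACGTCA was in 1 member, *Psmb2* (2.5%, against 3.16%). TTCNNNGAA was in *Psmb8*, *Psmd2* and *Psmd3* (7.5%, against 6.82%). The interferon-stimulated response element, in 1 of its forms, was in *Psmb3*, *Psmd4*, *Psmd7* and *Psmd9* (10%, against 3.1%) and in none of the 3 immunoproteasome genes. A match is a stretch of letters and not a binding site, and these shares bear on the windows alone.

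Under TMM scaling, both forms of Gs stimulation were accompanied by more mRNA of many core subunits and by less of some immunoproteasome genes. A gene was called where its adjusted p was under 0.05 in edgeR's quasi-likelihood test. Of the immunoproteasome genes, *Psmb10* was called lower in all 4 treatment comparisons, *Psmb8* in 3 and *Psmb9* in 1. With C-3BO on chow, 14 of 38 members were called higher (36.8%, against 15.8% of all genes tested) and 3 lower (against 15.9%). On HFD, C-3BO raised 17 (44.7%, against 19.3%) and lowered 2 (against 15.5%). CL on chow raised 7 (18.4%, against 9.16%) and lowered 2 (against 6.13%), and CL on HFD raised 15 (39.5%, against 12.7%) and lowered 2 (against 10.8%). Members were also more abundant than the usual gene, with a median of 77.9 CPM against 22.9 CPM, and the part of this in the share of calls was not tested. The median log2 fold change over the members was 0.23, 0.24, 0.14 and 0.25 in the order given, with the median of all genes tested between -0.03 and -0.01. The changes were small: members called past a log2 fold change of 1 or -1 were *Psmb8* and *Psmb9* with C-3BO on chow (neither without chow control replicate 5, at -0.87 and -0.67) and none in the other comparisons, against 7.19%, 7.43%, 2.58% and 4.11% of all genes tested.

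These directions rest in part on how libraries are scaled. Under scaling by total counts only, the median of all genes tested moved by -0.20, -0.17, -0.14 and -0.14 in the 4 comparisons, and with C-3BO on chow 7.87% of all genes were called higher and 31.1% lower. Members called higher there fell to 3 and those called lower rose to 7. Taken against the median of all genes, the core subunits were higher by 0.28, 0.33, 0.18 and 0.26 on the log2 scale under this scaling. A change of scaling moves all genes of a library alike, so this difference hardly depends on it and cannot test it. As a share of all counts in a library, the members together took 0.284% in chow control and 0.295% in chow C-3BO (medians), 0.287% and 0.303% on HFD, 0.295% with saline and 0.277% with CL on chow, and 0.285% and 0.292% on HFD. The groups overlapped in this share in all 4 comparisons. On chow, for example, its range was 0.275% to 0.365% in control and 0.276% to 0.338% in C-3BO.

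**Figure D2:**
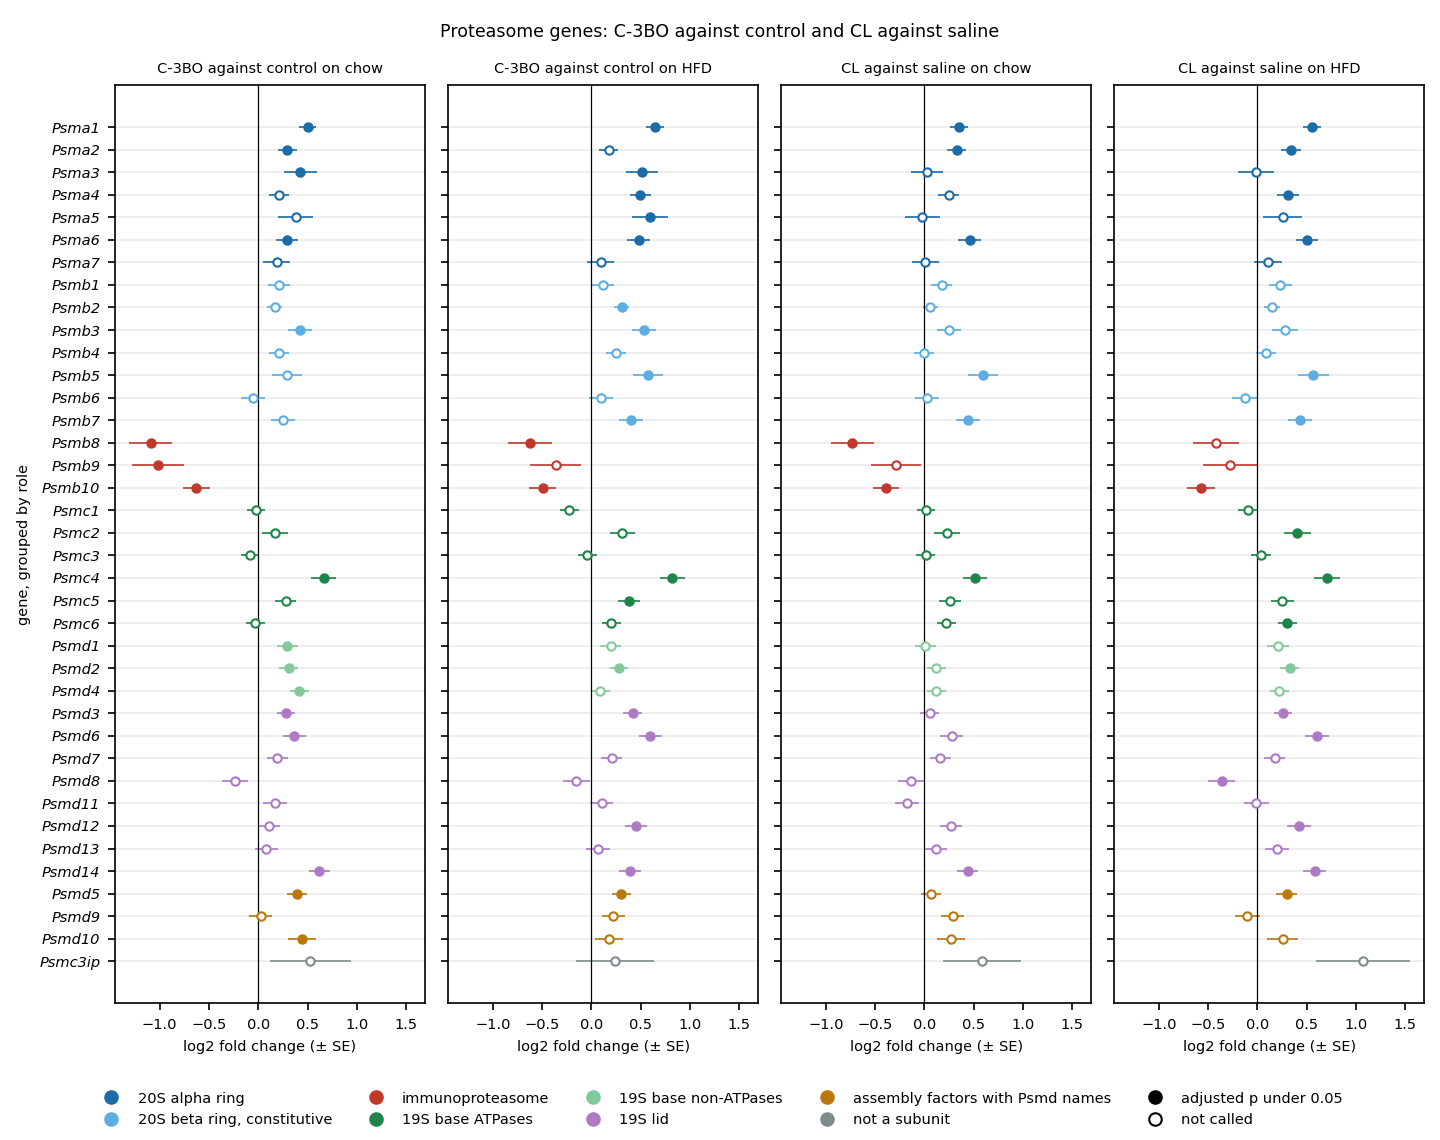
Log2 fold change (x axis, ± SE) of the 38 tested proteasome genes, in rows by role, for C-3BO against control and CL against saline on each diet. Filled points have an adjusted p under 0.05. Under TMM scaling, core subunits lie mostly right of 0 in all panels, with *Psmc4* between 0.51 and 0.82, while the 3 immunoproteasome genes lie left of 0.

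By part of the particle, calls were few, and several counts were near the share of all genes called higher (15.8%, 19.3%, 9.16% and 12.7% in the 4 comparisons). Of the 7 alpha ring genes, 4 rose with C-3BO on chow, 5 with C-3BO on HFD, 3 with CL on chow and 4 with CL on HFD. Of the 7 constitutive beta ring genes, 1, 4, 2 and 2 rose. The 6 ATPases gave 1, 2, 1 and 3, the 3 other base subunits 3, 1, 0 and 1, and the 8 lid subunits 3, 4, 1 and 4. In all, 21 of the 31 core subunits rose in at least 1 of the 4 comparisons, and 22 of 31 had a log2 fold change above 0 in all 4 comparisons, which share no library with each other. Called higher in all 4 were *Psma1*, *Psma6*, *Psmc4* and *Psmd14*, and 11 members were called higher in 3 or more. *Psmd5*, the chaperone that holds ATPases for assembly of the base, was among those 11. The share of all genes tested that meets each of these joint counts was not computed, so the counts are descriptions only.

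*Psmc4* (chr7:28826721-28835111, minus strand) encodes the ATPase Rpt3 and had the largest log2 fold change of the core in 3 of the 4 comparisons, all but CL on chow. On chow its level was 66.8, 77.8, 105, 72.9 and 61.2 CPM in control and 109, 125, 152, 102 and 118 CPM in C-3BO mice. 4 of 5 C-3BO libraries exceeded every control and 1 lay within their range, and the log2 fold change was 0.66 (SE 0.12, adjusted p = 9.03e-05). On HFD it was 56.6, 55.7, 60.1, 86.5 and 60.7 CPM in control and 114, 101, 109.8, 125 and 115 CPM in C-3BO mice, with no overlap and a log2 fold change of 0.82 (SE 0.13, adjusted p = 3.05e-06). In injected mice on chow it was 69.2, 50.8, 68.4, 75.7 and 59.5 CPM with saline and 87.8, 104, 83.0, 90.8 and 96.3 CPM with CL, and on HFD 58.7, 64.4, 55.2, 55.1 and 56.8 and 111, 105, 88.7, 88.5 and 81.9 CPM. The groups did not overlap on either diet. With CL its log2 fold change was 0.51 (SE 0.12, adjusted p = 0.00392) on chow and 0.70 (SE 0.13, adjusted p = 0.000107) on HFD.

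*Psmd14* (chr2:61549751-61638433, plus strand) encodes the lid enzyme that cuts ubiquitin from the bound protein. Its levels were 51.1, 55.5, 69.5, 51.4 and 46.6 CPM in chow control and 79.4, 84.1, 109, 74.4 and 74.0 CPM in chow C-3BO. On HFD they were 42.9, 48.0, 45.7, 61.0 and 44.8 CPM in control and 68.7, 62.9, 61.4, 63.2 and 62.7 CPM in C-3BO. All C-3BO libraries exceeded all controls of their diet, with log2 fold changes of 0.62 (SE 0.11, adjusted p = 4.37e-05) on chow and 0.39 (SE 0.11, adjusted p = 0.00531) on HFD. With CL, 5 of 5 libraries exceeded every saline library on each diet, from 56.4, 42.4, 64.2, 63.2 and 50.8 CPM to 74.1, 84.2, 68.8, 71.0 and 77.6 CPM on chow and from 47.4, 43.3, 43.8, 45.1 and 52.5 CPM to 75.2, 70.6, 72.4, 63.9 and 66.5 CPM on HFD. The log2 fold changes were 0.44 (SE 0.11, adjusted p = 0.0053) and 0.58 (SE 0.12, adjusted p = 0.000286).

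*Psma1* (chr7:121408064-121419630, minus strand), of the alpha ring, had the smallest p of all members in 3 of the 4 comparisons, all but CL on chow. It measured 93.1, 99.8, 113, 105 and 83.6 CPM in chow control, 146, 145, 169, 123 and 116 CPM in chow C-3BO, 81.9, 79.0, 82.1, 92.2 and 79.9 CPM in HFD control and 128, 136, 131, 128 and 125 CPM in HFD C-3BO. Groups did not overlap within either diet, and the log2 fold changes were 0.50 (SE 0.09, adjusted p = 3.52e-05) and 0.64 (SE 0.09, adjusted p = 4.7e-07). In injected mice it measured 102, 81.6, 106, 106 and 106 CPM with saline and 115, 128, 127, 132 and 139 CPM with CL on chow, and 94.6, 93.2, 84.8, 99.3 and 87.2 and 142, 149, 121, 121 and 139 CPM on HFD. There too the groups were apart, at 0.35 (SE 0.09, adjusted p = 0.00504) and 0.56 (SE 0.09, adjusted p = 1.74e-05). *Psma6* rose by 0.29 (adjusted p = 0.0478), 0.48 (adjusted p = 0.00109), 0.46 (adjusted p = 0.00443) and 0.50 (adjusted p = 0.00148) on the log2 scale. The first of these calls held in 1 of 8 alternative settings and 4 of 10 libraries left out, the other 3 in all.

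Of the 3 catalytic subunits of the constitutive core, *Psmb5* and *Psmb7* were called higher in 3 comparisons each and *Psmb6* in none, a difference between genes that was not tested. *Psmb5* (chr14:55232957-55236832, minus strand), the chymotrypsin-like subunit, was at 43.7, 36.0, 50.4, 57.0 and 62.7 CPM with saline and 75.9, 86.6, 72.7, 67.8 and 74.2 CPM with CL on chow. On HFD it was at 42.6, 45.2, 44.5, 34.1 and 46.8 CPM with saline and 71.0, 68.9, 63.7, 61.7 and 56.1 CPM with CL. Neither pair of groups overlapped, and it rose by 0.59 (SE 0.15, adjusted p = 0.00576) and 0.57 (SE 0.16, adjusted p = 0.00786). In HFD control it was at 37.0, 35.6, 43.1, 50.8 and 49.3 CPM and in HFD C-3BO at 56.2, 72.0, 55.7, 59.7 and 79.3 CPM, also without overlap, at 0.58 (SE 0.15, adjusted p = 0.00284). On chow its levels of 65.0, 48.0, 93.6, 55.2 and 53.8 CPM in control and 77.2, 76.3, 104, 60.2 and 68.0 CPM in C-3BO overlapped, at 0.29 (SE 0.15, adjusted p = 0.139). Without chow control replicate 3, which had the highest of the control values, the log2 fold change there was 0.47 and passed the test.

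*Psmb7* (chr2:38443566-38499426, minus strand), the trypsin-like subunit, followed the same course, at 0.25 (adjusted p = 0.109) and 0.40 (adjusted p = 0.00828) with C-3BO on chow and HFD and 0.44 (adjusted p = 0.00971) and 0.43 (adjusted p = 0.00878) with CL. *Psmb6* (chr11:70338859-70341360, plus strand), the caspase-like subunit, gave -0.05, 0.10, 0.02 and -0.13 with adjusted p values from 0.494 to 0.929. Its sign differed between comparisons and between alternative settings, and its groups overlapped in all 4 comparisons, with means from 91.2 ± 5.12 CPM in HFD CL to 115 ± 22.8 CPM in chow control (SD, n = 5). Among the other members, *Psmd6* of the lid rose by 0.36 (adjusted p = 0.0144), 0.60 (adjusted p = 0.000114) and 0.60 (adjusted p = 0.000325), and gave 0.28 (adjusted p = 0.102) with CL on chow. *Psmd2*, the scaffold of the base, rose by 0.31, 0.28 and 0.32, and *Psmd3* of the lid by 0.28, 0.42 and 0.26. Of the alpha ring, *Psma2* rose by 0.29, 0.33 and 0.34 (C-3BO on chow, CL on chow and CL on HFD), *Psma3* by 0.43 and 0.51 with C-3BO on chow and HFD, *Psma4* by 0.50 and 0.31 with C-3BO and CL on HFD, and *Psma5* by 0.59 with C-3BO on HFD. Of the beta ring, *Psmb3* rose with C-3BO by 0.42 on chow and 0.54 on HFD, and *Psmb2* by 0.31 on HFD. All of these encode structural ring subunits without a cutting site. The ATPases *Psmc2* and *Psmc6* rose with CL on HFD, by 0.40 and 0.30, and *Psmc5* with C-3BO on HFD, by 0.38. The lid subunit *Psmd12* rose on HFD by 0.45 with C-3BO and 0.42 with CL. Assembly chaperones leave the particle once it is complete. Among them, *Psmd5* rose by 0.39, 0.31 and 0.30 and *Psmd10* by 0.44 with C-3BO on chow. *Psmd1* of the base rose there by 0.29. The ubiquitin receptor *Psmd4* rose with C-3BO on chow alone among the calls, by 0.42 (SE 0.10, adjusted p = 0.00096).

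*Psmd8*, the highest core gene per length in chow control, was the core member with a log2 fold change below 0 in all 4 comparisons, at -0.23, -0.15, -0.13 and -0.36. It fell with CL on HFD (adjusted p = 0.0456), where it was at 267, 187, 259, 273 and 175 CPM with saline and 192, 180.4, 199, 169 and 158 CPM with CL, groups that overlapped. That call held on leaving out 3 of the 10 libraries, taken in turn. The ATPases *Psmc1* and *Psmc3* gave -0.02, -0.22, 0.02 and -0.10 and -0.08, -0.04, 0.01 and 0.04, with no call. *Psmc3ip*, which is no subunit and had the lowest level of the 38, gave 0.53, 0.24, 0.58 and 1.07 and was not called either.

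Of the 38 members tested, 11 were called in none of the 4 comparisons, and the share of all genes tested without a call was not computed. Calls that held in all alternative settings and on leaving out each library in turn were fewer. They were *Psma1*, *Psmc4* and *Psmd14* among the 14 that rose with C-3BO on chow, 10 of 17 with C-3BO on HFD, 4 of 7 with CL on chow (*Psma6*, *Psmb5*, *Psmc4* and *Psmd14*) and 7 of 15 with CL on HFD. Without replicates 4 and 5 of HFD C-3BO, which carried liver and epididymis transcripts, C-3BO on HFD still raised 11 members. The libraries of HFD saline and HFD CL all carried those transcripts, so the comparison of CL on HFD was made within that set. Skeletal muscle transcripts were lower with CL on chow, at 7.51 to 1961 CPM with saline and 8.20 to 102 CPM with CL, and all 5 of them were called. Of 4 markers of smooth muscle and endothelium, 2 were called lower with C-3BO on chow and 4 with C-3BO on HFD (median log2 fold change -0.38 and -0.59), none with CL on chow (-0.12), and 1, *Pecam1*, higher with CL on HFD (0.04). Their part in the values was not tested.

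The 3 immunoproteasome genes had log2 fold changes below 0 in all 4 comparisons, where the median of the core was 0.25, 0.31, 0.16 and 0.25. *Psmb8* (chr17:34335140-34338399, plus strand), which replaces *Psmb5*, was at 34.7, 21.6, 39.4, 31.7 and 59.2 CPM in chow control and 14.9, 21.1, 17.9, 17.5 and 15.6 CPM in chow C-3BO. All C-3BO libraries lay below all controls, and it fell, at -1.09 (SE 0.22, adjusted p = 0.000217). On HFD it was at 35.2, 33.8, 28.0, 22.4 and 45.8 CPM in control and 17.3, 24.8, 19.9, 27.5 and 17.4 CPM in C-3BO, which overlapped, and fell, at -0.62 (SE 0.22, adjusted p = 0.0249). With CL on chow it went from 22.4, 30.9, 45.1, 27.1 and 34.4 CPM to 11.6, 14.6, 30.1, 16.6 and 23.4 CPM, again with overlap, at -0.73 (SE 0.22, adjusted p = 0.0174). On HFD it went from 26.7, 27.5, 30.3, 28.1 and 24.4 CPM to 17.0, 17.5, 21.2, 22.4 and 24.3 CPM, where the groups were apart by a small margin, at -0.42 (SE 0.23, adjusted p = 0.2). The calls on HFD with C-3BO and on chow with CL were lost on leaving out any of 4 of the 10 libraries.

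*Psmb10* (chr8:108459628-108462292, minus strand), which replaces *Psmb7*, fell in all 4 comparisons. It was at 33.0, 30.2, 40.2, 33.1 and 48.2 CPM in chow control, 22.0, 22.8, 29.4, 22.6 and 22.3 CPM in chow C-3BO, 35.6, 35.4, 32.6, 28.3 and 47.1 CPM in HFD control and 23.8, 25.6, 25.2, 27.9 and 24.4 CPM in HFD C-3BO. The groups did not overlap on either diet, at -0.63 (SE 0.13, adjusted p = 0.000453) and -0.49 (SE 0.13, adjusted p = 0.00408). With saline and CL it was at 29.6, 34.6, 35.9, 32.9 and 39.5 and 24.4, 21.5, 32.9, 21.9 and 31.2 CPM on chow, which overlapped, and at 36.8, 36.5, 33.7, 35.1 and 24.1 and 23.9, 21.4, 23.0, 19.3 and 23.6 CPM on HFD, which did not. The log2 fold changes were -0.39 (SE 0.13, adjusted p = 0.0398) and -0.58 (SE 0.14, adjusted p = 0.00311). The call on chow with CL was lost on leaving out any of 6 of the 10 libraries, the other 3 on leaving out none.

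*Psmb9* (chr17:34319044-34324275, minus strand), which replaces *Psmb6*, was at 18.5, 12.3, 22.6, 13.1 and 40.1 CPM in chow control and 7.84, 11.3, 9.32, 12.3 and 11.2 CPM in chow C-3BO. It fell, at -1.01 (SE 0.26, adjusted p = 0.0031), although the groups overlapped by 1 library. Replicate 5 of the controls was the highest for all 3 immunoproteasome genes, and without it the log2 fold changes of *Psmb8* and *Psmb9* were -0.87 and -0.67, both still called. In the other comparisons *Psmb9* gave -0.36 (adjusted p = 0.288), -0.28 (adjusted p = 0.498) and -0.28 (adjusted p = 0.524), none of them called.

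**Figure D3:**
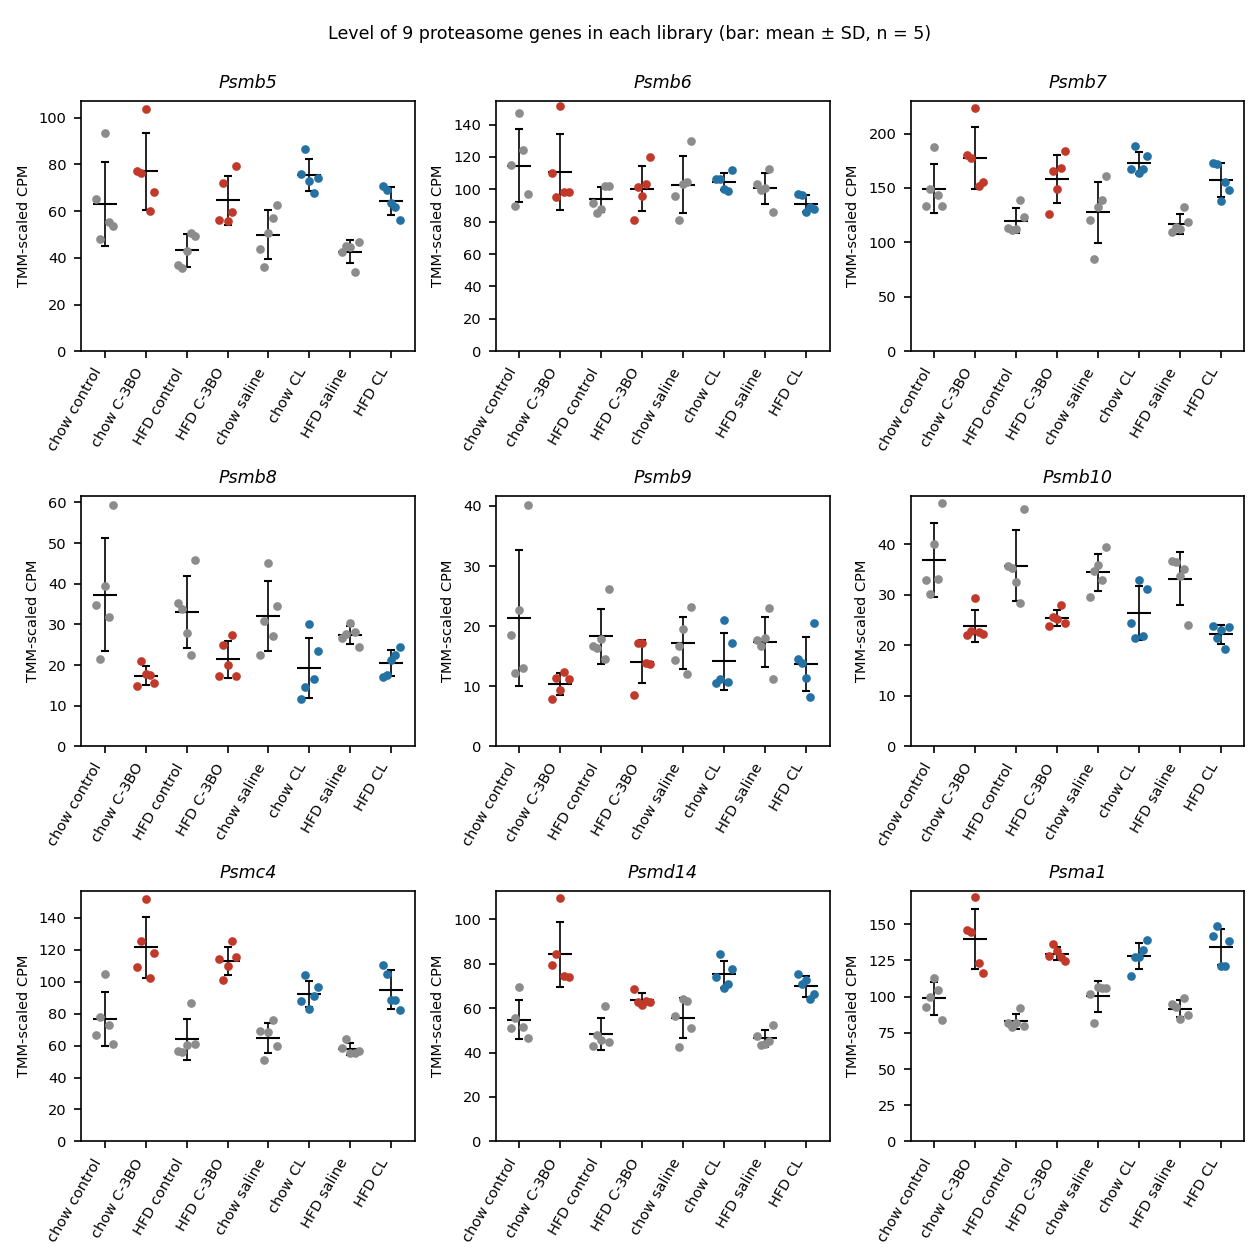
TMM-scaled CPM of the 3 catalytic subunits of the constitutive core (top), the 3 immunoproteasome subunits (middle) and 3 genes called higher in all 4 treatment comparisons (bottom), with 1 point per library in 8 groups of 5, and bars for mean ± SD. *Psmc4* rises from 58.0 CPM in HFD saline to 94.9 CPM in HFD CL, while *Psmb10* goes from 33.2 to 22.2 CPM.

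Since each immunosubunit takes the place of 1 constitutive subunit, its level per kb was set against that of its partner within each library, a ratio that does not depend on how libraries are scaled. *Psmb8* stood at 33.3, 28.0, 26.2, 35.8 and 68.6% of *Psmb5* in chow control and at 12.0, 17.2, 10.8, 18.1 and 14.3% in chow C-3BO, with no overlap. With CL on chow the values were 31.9, 53.4, 55.7, 29.6 and 34.2% in saline and 9.52, 10.5, 25.8, 15.2 and 19.6% in CL mice, also apart. On HFD the medians were 57.8% in control and 21.5% in C-3BO, whose ranges overlapped, and 39.1% with saline and 20.8% with CL, whose ranges did not. *Psmb10* stood at 18.8, 15.4, 16.3, 17.7 and 27.6% of *Psmb7* in chow control and 9.33, 9.81, 10.0, 11.4 and 10.9% in chow C-3BO. Its medians were 24.0% and 12.7% in control and C-3BO on HFD, 18.8% and 11.1% with saline and CL on chow, and 23.0% and 10.6% on HFD. All 4 pairs of groups were apart in this ratio. The ratio of *Psmb9* to *Psmb6* had medians of 19.7%, 24.6%, 22.9% and 21.9% in the control and saline groups and 14.6%, 17.2%, 13.8% and 18.5% in their treated counterparts, with overlap in all 4. These ratios are descriptions of mRNA and were not tested. They compare genes, and *Psmb5* has a near-identical copy in the genome.

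**Figure D4:**
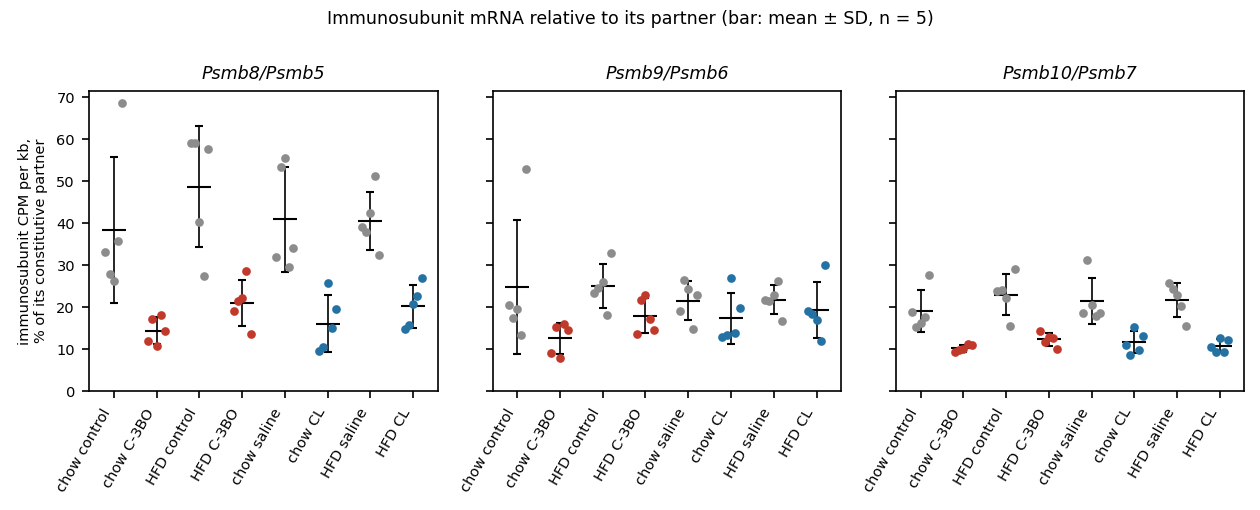
Level per kb of each immunosubunit as a percentage of the constitutive subunit it replaces, with 1 point per library in 8 groups of 5 and bars for mean ± SD. *Psmb10* against *Psmb7* separates all 4 treated groups from their controls, *Psmb8* against *Psmb5* separates 3 of 4, and *Psmb9* against *Psmb6* separates none.

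Several neighbours and partners of the immunoproteasome in antigen processing fell as well. In mm9 *Psmb9*, *Tap1*, *Psmb8* and *Tap2* lie side by side on chromosome 17. The starts of *Psmb9* and *Tap1* are 226 bases apart on opposite strands, so the *Psmb9* window printed above also holds the start of *Tap1*. *Psmb8* begins 970 bases after the end of *Tap1*. Of 11 genes tested in a list of antigen processing and interferon response, 8, 4, 5 and 4 fell in the 4 treatment comparisons and none rose, where 15.9%, 15.5%, 6.13% and 10.8% of all genes tested were called lower. *Tap1*, a subunit of the peptide transporter, gave -0.99 (adjusted p = 0.00142), -0.32 (adjusted p = 0.306), -0.59 (adjusted p = 0.0762) and -0.26 (adjusted p = 0.483). Genes of the MHC class I complex fell in all 4: *B2m*, its light chain, by -0.92, -0.79, -0.52 and -0.54, *H2-K1* by -0.85, -0.55, -0.43 and -0.40 and *H2-D1* by -0.79, -0.74, -0.63 and -0.67. So did *Tapbp*, which loads peptides, by -0.46, -0.46, -0.36 and -0.42. The interferon-induced GTPase *Gbp2* fell, at -1.25 with C-3BO and -0.74 with CL on chow. *Irgm1*, another, fell, at -0.75 and *Tap2* by -0.42 with C-3BO on chow. *Nlrc5*, an activator of MHC class I genes, gave -0.52, -0.05, -0.29 and 0.05 with no call. *Irf1*, a transcription factor induced by interferon, passed the test in none of the 4, at -0.32, 0.00, -0.23 and 0.04.

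Leukocytes are rich in these genes, so leukocyte markers are given beside them. The summed level of 10 markers was 95.6 to 168 CPM in chow control and 73.2 to 163 CPM in chow C-3BO, where none was called. Their median log2 fold change there was -0.33, with 7 of 10 below 0 and 3 above. *Lyz2* made up much of the sum, at 45.0 to 99.1 CPM in chow control, where *Cd3e* of lymphocytes was at 0.932 to 1.16 CPM. The sum was 83.7 to 193 and 78.7 to 98.6 CPM in control and C-3BO on HFD, where *Csf1r* of macrophages was lower at -0.62 (adjusted p = 0.0489). It was 98.4 to 230.4 and 77.1 to 269 CPM with saline and CL on chow, with no marker called, and 233 to 589.5 and 98.7 to 316 CPM on HFD, where *Cd68* gave -1.25 (adjusted p = 0.00758) and *Csf1r* -0.96 (adjusted p = 0.00483). Their part in the immunoproteasome values was not tested. Of 6 brown adipocyte markers, 3, 2, 2 and 2 were called higher and 1, 0, 1 and 0 lower in the 4 comparisons. *Ucp1*, the uncoupling protein of brown fat, rose in all 4, at 2.38, 1.52, 1.90 and 1.74, while *Adipoq*, an adipokine gene, was at -0.36, -0.09, -0.47 and -0.18 and was called lower on chow. In replicate 5 of chow CL, *Ucp1* was at 1644 CPM, within the range of chow saline (1267 to 1865 CPM), where the other chow CL libraries were at 5943 to 8986 CPM. Without that library, CL on chow raised 7 members and lowered 2, the same counts as with it.

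No proteasome gene was called as differing in its response between diets or between C-3BO and CL. Of all genes tested, 2.09% were called for a difference of the C-3BO effect between HFD and chow, 0.0151% for that of the CL effect, 6.24% for C-3BO against CL on chow and 1.8% for the same on HFD. Among the members, 2, 1, 3 and 1 had an unadjusted p under 0.05, and DESeq2 called 0 in each. The effect on *Psmc4* differed between diets by 0.16 (95% interval -0.19 to 0.50, adjusted p = 0.735) for C-3BO and 0.19 (95% interval -0.16 to 0.54, adjusted p = 0.781) for CL, on the log2 scale. That on *Psmb8* differed by 0.47 (95% interval -0.14 to 1.07, adjusted p = 0.503) and 0.31 (95% interval -0.31 to 0.93, adjusted p = 0.801), and that on *Psmb9* by 0.65 (95% interval -0.07 to 1.38, adjusted p = 0.415) for C-3BO. Between C-3BO and CL on chow, the effects differed by -0.36 (95% interval -0.96 to 0.24, adjusted p = 0.548) for *Psmb8*, -0.73 (95% interval -1.45 to -0.01, adjusted p = 0.251) for *Psmb9*, -0.30 (95% interval -0.72 to 0.11, adjusted p = 0.445) for *Psmb5* and 0.15 (95% interval -0.20 to 0.49, adjusted p = 0.687) for *Psmc4*. The intervals are built from the normal distribution, which makes them slightly narrower than the test implies. All but that of *Psmb9* between C-3BO and CL held 0, and that one ended at -0.01, too near 0 to count as an exception. All of these intervals leave room for differences as large as many of the effects themselves.

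Under TMM scaling, HFD was accompanied by lower levels of a number of core subunits and by no call in the other direction, while under scaling by library totals the median of the core was above 0 in C-3BO and CL mice. In control mice 11 of 38 members were lower (28.9%, against 17.5% of all genes tested) and 0 higher (against 15.4%). In saline mice 9 were lower (23.7%, against 8.04%) and 0 higher (against 7.45%). In C-3BO mice 6 were lower (15.8%, against 12.2%) and in CL mice 5 (13.2%, against 12.7%), shares near those of all genes, and 0 were higher (against 13.5% and 10.9%). DESeq2 called 0 higher in any of the 4 as well, and no member was higher at an unadjusted p under 0.05. The median log2 fold change over the members was -0.20, -0.15, -0.20 and -0.14 in control, C-3BO, saline and CL mice. Of the 31 core subunits, 22 were below 0 in all 4, a count for which the share of all genes tested was not computed. Scaled by library totals, the median of all genes moved by 0.15 to 0.18, the median of the core became 0.02 in C-3BO and 0.03 in CL mice, and 2, 1, 1 and 0 members were called lower. Relative to the median of all genes the core was then at -0.23, -0.19, -0.18 and -0.13. That difference, too, hardly depends on scaling and cannot test it.

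*Psmb1* of the beta ring was the member lower on HFD in all 4 kinds of mice. It went from 108, 108, 145, 120.2 and 90.2 CPM to 87.8, 89.9, 92.6, 96.0 and 87.4 CPM in control and from 127, 122, 179, 113 and 119 CPM to 98.9, 113, 101, 82.1 and 96.7 CPM in C-3BO mice. The former groups overlapped and the latter did not, at -0.33 (SE 0.11, adjusted p = 0.0195) and -0.42 (SE 0.11, adjusted p = 0.00481). It went from 102, 77.7, 93.3, 111 and 109.6 CPM to 71.8, 69.7, 75.4, 77.2 and 76.7 CPM in saline and from 109, 113, 102, 109.6 and 124 CPM to 91.1, 89.9, 68.9, 84.8 and 98.1 CPM in CL mice, without overlap, at -0.42 (SE 0.12, adjusted p = 0.0111) and -0.36 (SE 0.11, adjusted p = 0.0174). *Psmd4* was lower in 3 of 4, at -0.35 in C-3BO, -0.41 in saline and -0.31 in CL mice. In control mice the largest falls were those of *Psmb5*, at -0.55 (SE 0.15, adjusted p = 0.00449), *Psma5*, at -0.54 (adjusted p = 0.0172), and the ATPase *Psmc6*, at -0.42 (adjusted p = 0.000685). Also lower in control mice were *Psma1*, *Psma2*, *Psma4*, *Psmb2*, *Psmb7*, *Psmd6* and *Psmd12*, in C-3BO mice *Psma2*, *Psmc1*, *Psmd1* and *Psmd14*, in saline mice *Psma7*, *Psmc2*, *Psmd1*, *Psmd2*, *Psmd3* and *Psmd5*, and in CL mice *Psma7*, *Psmc1* and *Psmd11*. *Psmc6* was the member whose call in control mice held in all alternatives, and *Psmd11* of the lid, at -0.52 (adjusted p = 0.00401), the one in saline mice. In C-3BO and CL mice no call held in all of them, so none of the 4 calls of *Psmb1* did.

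The immunoproteasome genes were not called for diet in any kind of mouse. *Psmb8* gave -0.18, 0.29, -0.23 and 0.08, *Psmb9* -0.21, 0.44, -0.05 and -0.04 and *Psmb10* -0.04, 0.09, -0.06 and -0.25 in control, C-3BO, saline and CL mice, with signs that varied. Beside the fall of the core on HFD stands the fall of skeletal muscle transcripts in uninjected mice, from 287 to 2807 CPM in chow C-3BO to 4.16 to 55.7 CPM in HFD C-3BO, and in control mice as given above. With a score of those transcripts as a covariate, a setting chosen after the data were seen, 1 member was called lower in control and 2 in C-3BO mice. Other markers moved with diet as well. All 4 smooth muscle and endothelium markers were called higher on HFD in control mice (median log2 fold change 0.79), 3 in C-3BO, 1 in saline and 2 in CL mice. Of 10 leukocyte markers, 0, 0, 4 and 1 were called higher in control, C-3BO, saline and CL mice, with a median of 0.90 in saline mice. The part of these markers in the diet values was not tested. Without chow CL replicate 5, the library with *Ucp1* at the saline level, members called lower in CL mice went from 5 to 0. In injected mice the HFD libraries were those with lower depth and with liver and epididymis transcripts, so diet and that library set cannot be told apart there. The diet and treatment comparisons share libraries (HFD control serves in both), so they are not independent: *Psmb5*, for example, was at 43.2 CPM in HFD control against 63.1 CPM in chow control and 64.6 CPM in HFD C-3BO.

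**Figure D5:**
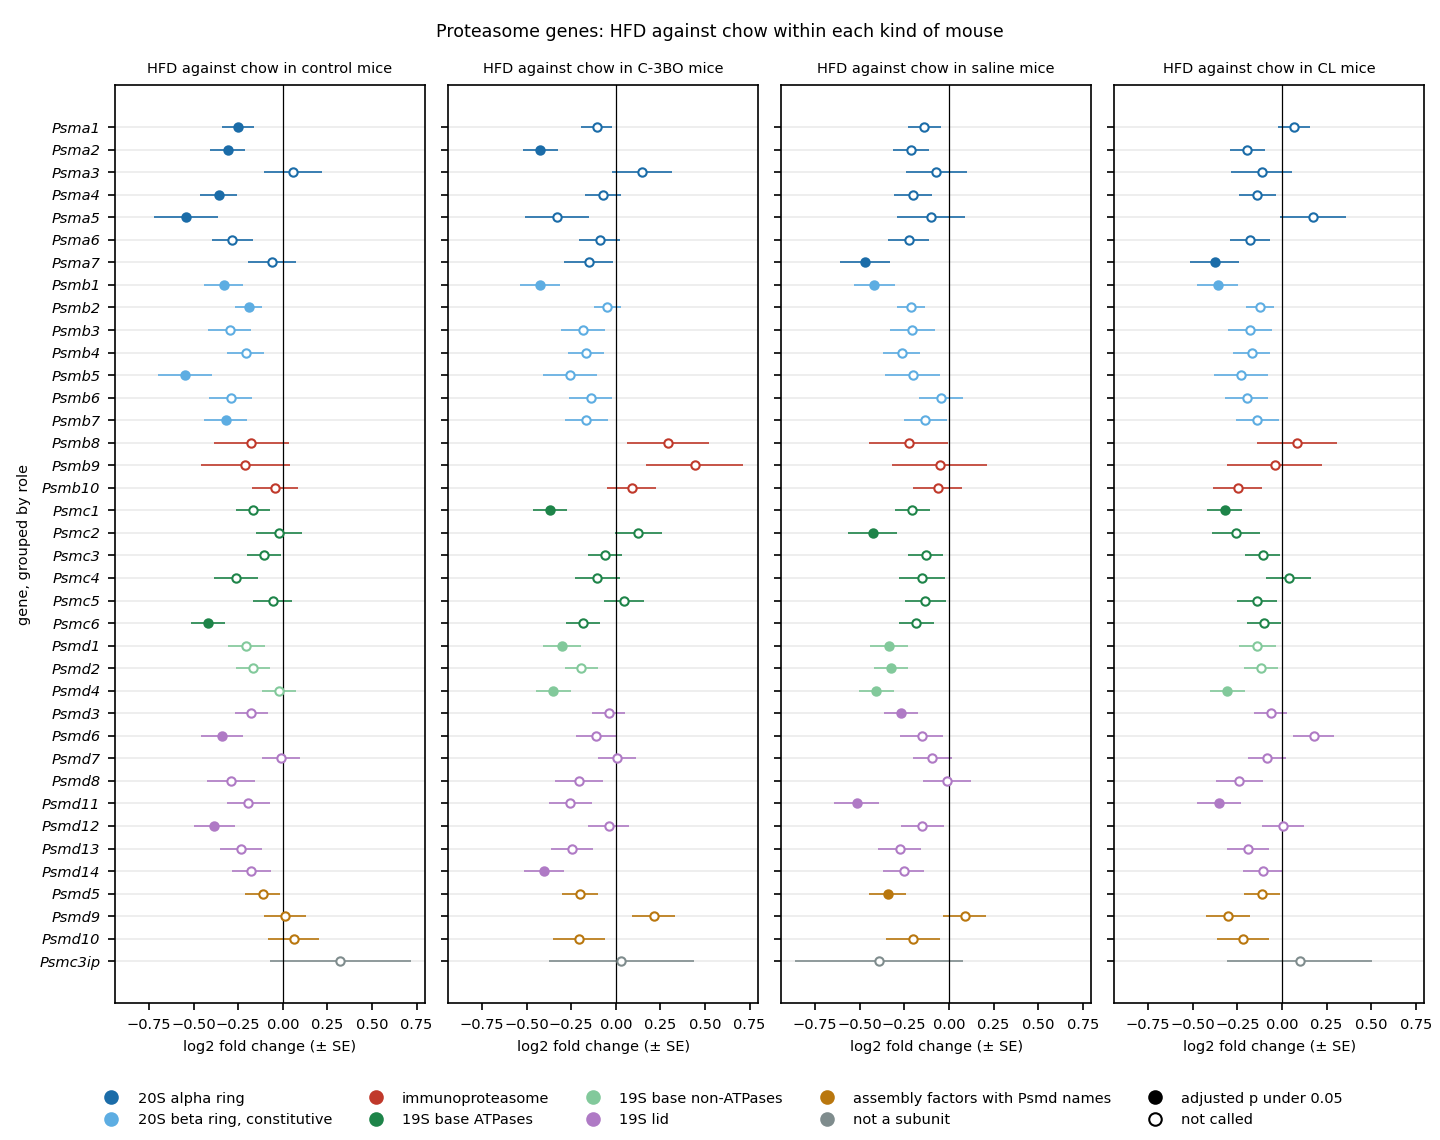
Log2 fold change (x axis, ± SE) of the 38 tested proteasome genes on HFD against chow, in rows by role, within control, C-3BO, saline and CL mice. Filled points have an adjusted p under 0.05. Under TMM scaling, called points all lie left of 0, with *Psmb1* between -0.42 and -0.33 in the 4 panels.

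Genes that work with the proteasome were followed in lists of their own. Among 5 activators and inhibitors, *Psme4*, whose product PA200 caps the core, rose with C-3BO and CL on HFD, by 0.41 (adjusted p = 0.00354) and 0.52 (adjusted p = 0.000758), and fell with HFD in control, C-3BO and saline mice, by -0.67, -0.48 and -0.52. *Psme1* and *Psme2* encode the PA28 cap, which like the immunoproteasome is induced by interferon. *Psme2* rose by 0.49 (adjusted p = 0.00467), 0.72 (adjusted p = 0.000274) and 0.57 (adjusted p = 0.00381) and gave 0.27 (adjusted p = 0.126) with C-3BO on chow, and *Psme1* gave -0.20, -0.09, 0.21 and 0.16 with no call. *Psme3* rose in 3 of the 4 treatment comparisons, by 0.34, 0.27 and 0.36, and the inhibitor *Psmf1* in none.

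Of 5 dedicated assembly chaperones tested, 0 were called higher in each treatment comparison. With 15.8%, 19.3%, 9.16% and 12.7% of all genes called higher, a count of 0 in so short a list does not set it apart. *Pomp*, which guides the 20S core, gave 0.11, 0.22, 0.23 and 0.20, and was lower on HFD in control and C-3BO mice by -0.48 and -0.37. *Psmg4* fell with CL on HFD by -0.63 (adjusted p = 0.0495), and *Psmg1*, *Psmg2* and *Psmg3* were not called in any treatment comparison. Among 5 further subunits and docked enzymes, the ligase *Ube3c* rose in all 4, by 0.26, 0.34, 0.24 and 0.56, and the ubiquitin receptor *Adrm1* rose with C-3BO, by 0.47 on chow and 0.54 on HFD. The docked deubiquitinases went the other way where they were called: *Uchl5* fell, at -0.67 with C-3BO on chow and *Usp14* by -0.25 with C-3BO on HFD. *Shfm1*, the small lid subunit, was called in no treatment comparison.

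Of the 4 regulators of the subunit genes, *Nfe2l1* rose on chow, by 0.38 (SE 0.06, adjusted p = 1.17e-05) with C-3BO and 0.22 (SE 0.06, adjusted p = 0.00983) with CL, and gave 0.03 (adjusted p = 0.731) and 0.02 (adjusted p = 0.883) on HFD. On HFD against chow it was itself higher in control mice, at 0.43 (adjusted p = 9.68e-07), with 769.9 to 881 CPM in chow control and 1023 to 1197 CPM in HFD control, groups that did not overlap. In those mice *Nfe2l2* was also called higher, at 0.34, and *Ddi2* and *Ngly1* lower, at -0.65 and -0.35. In C-3BO, saline and CL mice, 1, 0 and 1 of the 4 regulators were called higher on HFD and 1, 1 and 0 lower. For C-3BO the difference of the effect on *Nfe2l1* between diets passed its test, at -0.35 (95% interval -0.51 to -0.18, adjusted p = 0.0232), and for CL it gave -0.21 (95% interval -0.38 to -0.04, adjusted p = 0.45). The protease *Ddi2*, which frees NFE2L1 from the endoplasmic reticulum, rose with C-3BO by 0.60 and 0.67. *Ngly1*, which strips its sugars, rose by 0.23 with C-3BO on HFD, and *Nfe2l2* by 0.44 and 0.28 with C-3BO and CL on HFD. Of the ubiquitin genes, *Ubb* was called in no treatment comparison. *Rps27a*, a gene with many processed copies, fell with CL on HFD, at -1.41 (adjusted p = 0.0298). Its level was low, at 0.315 to 5.01 CPM in HFD saline and 0.182 to 1.74 CPM in HFD CL, and the groups overlapped. The highest of these values was that of HFD saline replicate 4, the library with the lowest total. Members with the antioxidant element in their window were called higher in 3 (*Psmb5*), 2 (*Psmd12*), 1 (*Psmb2* and *Psmc6*) and 0 (*Psmb6*, *Psmd7* and *Psmd9*) of the 4 treatment comparisons. The 4 members called higher in all of these comparisons did not hold the element in their windows, and 17.5% of all members held it. Counts so small do not set members with the element apart from the others, and a relation between element and calls was not tested.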

How the data were processed

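RNA-seq was made from BAT of 8 groups of 5 mice with the Illumina TruSeq RNA kit, per the labels. The authors deposited raw counts per gene. The submitters' processing notes name STAR, HOMER and mm9, while versions and the strand setting are not given in the sources used here. Samples were grouped by the labels. The proteasome genes and lists were chosen with earlier results of these data known.

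From the deposited counts, edgeR 4.0.16 (R 4.3.3, limma 3.58.1) was used with TMM scaling, filterByExpr (minimum count 10, 13277 of 20295 genes tested), 1 mean per group over all 40 libraries, the quasi-likelihood test and Benjamini-Hochberg adjustment over all genes tested (threshold 0.05). The steps were tested on simulated data. CPM values are TMM-scaled. P-values weigh a difference against the spread between libraries within groups, pooled over all 8 groups and moderated across genes. Named were the immunoproteasome genes and the subunits they replace, the 3 members with the highest and the 3 with the lowest log2 fold change in a comparison, members called, and lists of pathway genes, of which some members are not reported here. Alternatives were DESeq2 1.42.0, library totals, other filters, the replicate block, fewer libraries and each library left out. A skeletal muscle covariate and the motifs of the interferon-stimulated response element and the gamma-activated site (TTCNNNGAA) were added after the data were seen. Copies were sought with minimap2 2.31. Figures were drawn with Python 3.11.15 and matplotlib 3.10.9.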

Additional observations from a re-analysis of the deposited data

Results flagged for a closer look

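In 11 of 88 sets of 5 libraries examined, for 11 genes in 8 groups, 1 library stood apart from the other 4 by Dixon's criterion, which chance meets in about 1 in 20 sets. *Psmb6* was at 151 CPM in 1 chow C-3BO library, where the group median was 98.5 CPM. *Psmb9* was at 26.2 CPM in 1 HFD control library, against a median of 16.6 CPM. *Psmb10* was at 29.4 CPM in 1 chow C-3BO library, against 22.6 CPM, and at 24.1 CPM in 1 HFD saline library, against 35.1 CPM. *Psmc4* was at 86.5 CPM in 1 HFD control library, against 60.1 CPM. *Psmd14* was at 109 CPM in 1 chow C-3BO library (median 79.4 CPM), at 61.0 CPM in 1 HFD control library (45.7 CPM) and at 68.7 CPM in 1 HFD C-3BO library (62.9 CPM). *Psma1* was at 92.2 CPM in 1 HFD control library (81.9 CPM) and at 81.6 CPM in 1 chow saline library (106 CPM). *Psmd8* was at 300.3 CPM in 1 chow CL library, against 195 CPM.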

How the results depend on the processing

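Depth limits the HFD saline group most, with 849126 counts in its lowest library, and all p-values rest on 5 libraries a group. With library totals alone, C-3BO raised 3 and lowered 7 members on chow and raised 10 and lowered 4 on HFD, CL on HFD raised 7, and HFD lowered 2 members in control, 1 in C-3BO, 1 in saline and 0 in CL mice and raised 1 in C-3BO and 2 in CL mice. Leaving out HFD C-3BO replicates 4 and 5 together, C-3BO on HFD raised 11 and lowered 1. With only the libraries compared, CL on chow lowered 0, and HFD lowered 7 in control and 5 in saline mice. With at least 10 counts in every library, HFD lowered 17 in control mice. With the skeletal muscle covariate, chosen after seeing the data, CL on chow lowered 1, and HFD lowered 1 in control and 2 in C-3BO mice. Replicate numbers were shared between groups, but the deviations of same-numbered libraries did not correlate over 0.1 in every pair. With the replicate block, CL on HFD lowered 1 member and C-3BO on chow raised 12, and no other count moved by over 1.5 times.

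Leaving out 1 library at a time, members raised ranged from 9 to 19 with C-3BO on chow (9 without chow C-3BO replicate 3), 16 to 20 with C-3BO on HFD, 5 to 9 with CL on chow and 10 to 15 with CL on HFD. Members lowered ranged from 1 to 2 with C-3BO on HFD (1 without HFD control replicate 5 or HFD C-3BO replicate 1, 3 or 5), 0 to 2 with CL on chow (0 without chow saline replicate 3 or chow CL replicate 1, 2 or 4, and 1 without chow saline replicate 2 or 5) and 1 to 2 with CL on HFD. With HFD they ranged from 4 to 16 in control mice (4 without chow control replicate 3, 7 without HFD control replicate 2), 5 to 6 in C-3BO, 4 to 13 in saline (4 without chow saline replicate 1 or 4, 5 without HFD saline replicate 2) and 0 to 5 in CL mice (0 without chow CL replicate 5, 1 without HFD CL replicate 3, 3 without chow CL replicate 2 or HFD CL replicate 4).

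Signs that turned were those of values that passed no test. With library totals alone, *Psmb6* gave -0.071 for C-3BO on HFD, -0.11 for CL on chow, and 0.047 and 0.14 for HFD in C-3BO and saline mice. *Psmb7* gave 0.021, 0.057 and 0.031 for HFD in C-3BO, saline and CL mice, *Psmb9* 0.13 and 0.13 in saline and CL mice, and *Psmb10* 0.11 and 0.11 in control and saline mice. *Psmb6* gave -0.012 for C-3BO on HFD with those HFD C-3BO replicates left out and -0.0042 for CL on chow with no filter, and *Psmb10* 0.085 for HFD in control mice with the covariate. With 1 library left out, *Psmb6* ranged from -0.16 to 0.052 for C-3BO on chow, -0.064 to 0.12 for CL on chow and -0.11 to 0.053 for HFD in saline mice. For HFD, *Psmb8* ranged from -0.33 to 0.047 in control and -0.052 to 0.30 in CL mice, *Psmb9* from -0.38 to 0.14 in control, -0.15 to 0.084 in saline and -0.24 to 0.14 in CL mice, and *Psmb10* from -0.17 to 0.067 in control and -0.10 to 0.051 in saline mice. The cause was not tested.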
